A study of Mus musculus with 19 samples.

Results

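Malat1, Neat1, Meg3, Miat, Gas5, Snhg1, Snhg12 and Kcnq1ot1 are 8 long noncoding RNAs, and their levels were followed in brain endothelial cells (bECs) of mice under chronic social defeat. A member was measured where the array annotation gives it as the only symbol of a row, and 4 of the 8 have such a row: Malat1, Neat1, Miat and Kcnq1ot1, among 30638 rows with 1 symbol and 65956 rows in all. The other 4 share their rows with small nucleolar RNAs (snoRNAs) or microRNAs and are given as shared rows at the end. Young adult male wild-type C57BL/6N mice were kept in the home cage (HC, 4 animals) or lived beside an aggressive CD-1 male, with daily encounters of 10 minutes by the labels and a shorter time by the methods. Encounters ran for 1 day (CSD1, 3 animals), 7 days (CSD7, 4 animals) or 14 days (CSD14, 4 animals), and CSDrec (4 animals) spent 7 days back in the home cage after 14 days. Each array holds the CD31 positive cells sorted from 1 brain, without pooling. Stressed animals were selected for susceptible behaviour, except those of CSD1, which were not phenotyped. All animals are numbered as in the labels (HC 1, 2, 5, 6; CSD1 4, 18, 19; CSD7 9, 16, 17, 25; CSD14 12 to 15; CSDrec 28 to 31).

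Long noncoding RNAs act without being translated, and the 4 measured here act in the nucleus. Malat1 is an abundant transcript of nuclear speckles, the bodies that store splicing factors, and in endothelial cells it is known to influence the balance between proliferation and migration. Neat1, transcribed from the neighbouring gene, is the scaffold on which paraspeckles assemble. Miat, also named Gomafu, is a nuclear RNA best known from neurons, where it binds splicing factors. Kcnq1ot1 is an imprinted RNA that starts within an intron of Kcnq1, runs antisense to it from the paternal allele and silences neighbouring genes in cis. Gas5, Snhg1 and Snhg12 carry snoRNAs in their introns, and Meg3 is the imprinted RNA of the Dlk1-Dio3 domain.

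The promoters of Malat1 and Kcnq1ot1 are shown because the values of their rows were correlated across animals, and that of Miat for comparison. RefSeq windows from 250 bases before to 50 bases after the start site were at hand for 3 of the 4 measured members. Capitals mark TGACG, the core of a cyclic AMP response element, the CCAAT box and TATA, each searched on both strands, so that a match on the opposite strand appears as CGTCA for the first of them and as ATTGG for the CCAAT box, while TATA reads alike on both; where the 2 strands of TGACG overlap, each counts as a match. The windows are on GRCm38.p6, minus strand: Malat1 at chr19:5802623-5802922, Kcnq1ot1 at chr7:143296498-143296797 and Miat at chr5:112228899-112229198.
Malat1: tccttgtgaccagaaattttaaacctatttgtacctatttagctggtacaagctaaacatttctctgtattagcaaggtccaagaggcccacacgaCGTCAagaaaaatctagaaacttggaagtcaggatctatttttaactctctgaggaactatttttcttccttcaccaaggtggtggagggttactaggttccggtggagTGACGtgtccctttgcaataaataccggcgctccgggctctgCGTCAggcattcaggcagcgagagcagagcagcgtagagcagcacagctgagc
Kcnq1ot1: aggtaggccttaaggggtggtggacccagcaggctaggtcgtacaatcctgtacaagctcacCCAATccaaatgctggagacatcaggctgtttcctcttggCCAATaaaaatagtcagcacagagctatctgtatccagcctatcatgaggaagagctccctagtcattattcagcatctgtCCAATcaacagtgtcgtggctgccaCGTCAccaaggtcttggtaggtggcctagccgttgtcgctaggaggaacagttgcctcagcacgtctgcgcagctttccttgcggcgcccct
Miat: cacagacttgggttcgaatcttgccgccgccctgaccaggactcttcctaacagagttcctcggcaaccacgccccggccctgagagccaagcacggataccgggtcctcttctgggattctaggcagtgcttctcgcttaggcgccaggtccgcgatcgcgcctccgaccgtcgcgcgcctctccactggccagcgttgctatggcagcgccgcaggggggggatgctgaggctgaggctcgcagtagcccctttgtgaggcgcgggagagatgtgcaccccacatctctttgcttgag
The Malat1 window held 3 TGACG matches and neither CCAAT nor TATA. The Kcnq1ot1 window held 3 CCAAT matches and 1 TGACG match. The Miat window held none of the 3 motifs. Of 32851 windows of this length, 20.8% held TGACG, 37.4% CCAAT and 36.7% TATA. A match is a run of letters and no evidence of binding.

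The deposited values are log2 intensities, and levels were set against the 95th percentile (log2 3.10, the receptor level) of 1758 rows of taste, olfactory and vomeronasal receptor genes, which bECs have no known use for. The arrays carried endothelial RNA: 15 of 16 endothelial markers were measured, all above the receptor level, and their mean lay between 9.82 and 10.3 in every animal. HC animals 1 and 2 stand apart, with an SD over all rows of 1.54 to 1.58 against 1.72 to 1.84 on the other 17 arrays. Their mean level of 10 pericyte and smooth muscle markers was also the lowest, at 4.48 and 4.44, against 6.56 and 6.47 in HC animals 5 and 6 and 4.98 to 6.80 in the stressed animals. The median difference of these markers from HC was 0.059, 0.14, -0.42 and 0.38 from CSD1 to CSDrec, and -1.05, -0.90, -1.47 and -0.80 with HC animals 1 and 2 left out, and 0 of 10 were called either way. Values without these 2 animals therefore differ from the others in pericyte and smooth muscle level as well as in array spread. For rows above the receptor level the median log2 difference from HC was 0.23 (CSD1), 0.22 (CSD7), 0.21 (CSD14) and 0.22 (CSDrec), and 0.057, 0.056, 0.050 and 0.051 without these 2 animals. Changes of members are given with and without them. All stress groups were compared with the same HC animals. In bulk samples fewer cells of a type and less RNA per cell cannot be told apart.

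None of the 4 members passed limma's test in any stress group. Against HC, 6.8% of all rows were called in CSD1 (5.84% higher), 11% in CSD7, 7.9% in CSD14 and 0.0167% in CSDrec at an adjusted p under 0.05 (19608, 20977, 18993 and 17350 rows had an unadjusted p under 0.05). Against this background 0 of 4 members were called in each comparison, and 0 of 4 in limma's F-test across the 5 groups, which called 0.555% of rows. Between stress groups 0 of 4 members were called, where CSDrec against CSD1 called 0.00152% of rows (all higher) and the other pairs 0%. The adjusted p of the F-test was 0.7 for Malat1, 0.35 for Neat1, 0.34 for Miat and 0.47 for Kcnq1ot1. The unadjusted p was under 0.05 for Neat1 in CSDrec (0.01) and for Miat in CSD14 (0.025) and CSDrec (0.027). How many of all rows have the animals of a group wholly above or below HC is not given. Such separations are therefore reported below as description only.

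**Figure D1:**
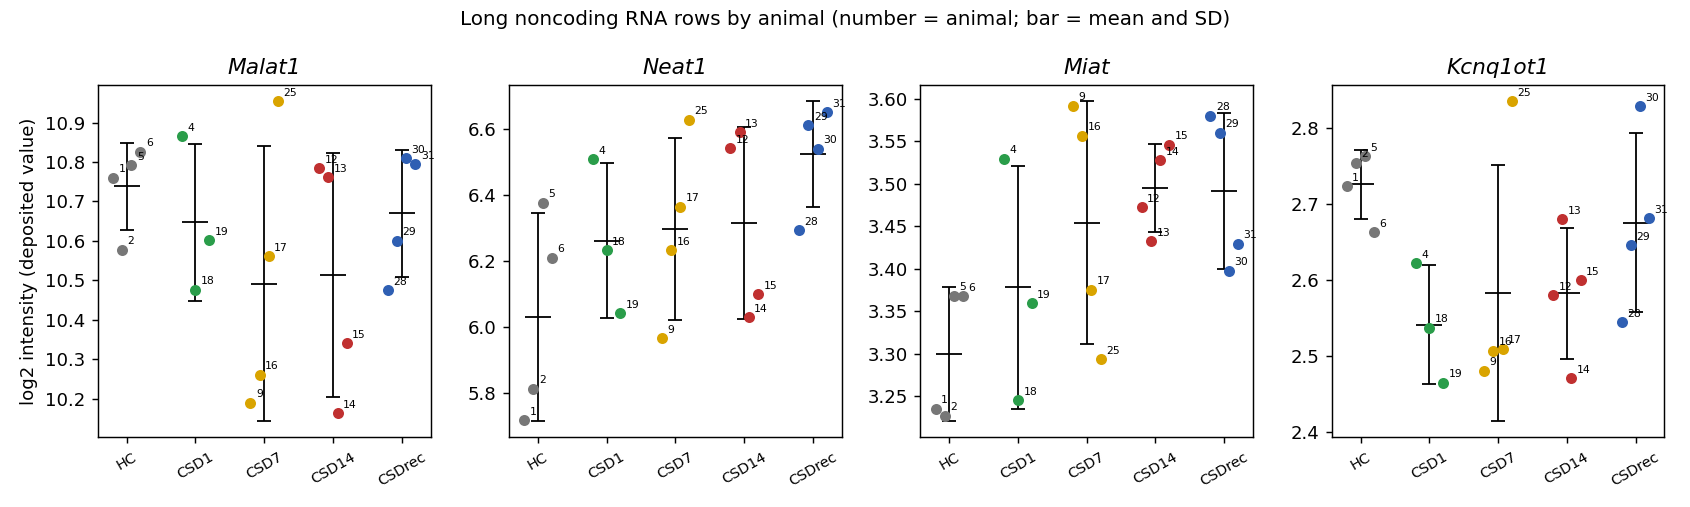
Deposited log2 intensity (y axis, a separate scale for each gene) of the 4 measured long noncoding RNAs in each animal (points, numbered) by group (x axis), with the mean and SD of the group in black. Malat1 lay between 10.16 and 10.96 and the groups overlap. Miat was at 3.40 or more in all CSD14 and CSDrec animals and at 3.37 or less in all HC animals. The share of rows that separate in this way is not given. Of 65956 rows, 18993 in CSD14 and 17350 in CSDrec had an unadjusted limma p under 0.05. Miat differed from HC by 0.19 in both groups, and the median of rows above the receptor level was 0.21 and 0.22.

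Malat1 was one of the strongest signals on the arrays, with a mean of log2 10.6 over 19 animals and 99.2% of rows below it. The HC animals 1, 2, 5 and 6 had 10.76, 10.58, 10.79 and 10.83, and the CSD1 animals 4, 18 and 19 had 10.87, 10.48 and 10.60. The CSD7 animals 9, 16, 17 and 25 had 10.19, 10.26, 10.56 and 10.96, the CSD14 animals 12 to 15 had 10.78, 10.76, 10.16 and 10.34, and the CSDrec animals 28 to 31 had 10.47, 10.60, 10.81 and 10.79. The lowest animals were CSD14 14, CSD7 9 and CSD7 16, and the highest was also a CSD7 animal, so that CSD7 held nearly the whole range. The SD was 0.35 in CSD7 and 0.31 in CSD14 against 0.11 in HC (n = 4 each). The group means ran from 10.74 in HC through 10.67 in CSDrec, 10.65 in CSD1 and 10.51 in CSD14 to 10.49 in CSD7.

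The difference of Malat1 from HC was -0.09 (95% interval -0.46 to 0.28) in CSD1, and it was -0.25 (-0.59 to 0.09) in CSD7, -0.23 (-0.57 to 0.11) after 14 days and -0.07 (-0.41 to 0.27) in CSDrec, and limma's adjusted p was 0.75, 0.3, 0.36 and 0.8. The linear ratio to HC was 0.84 in CSD7 (95% interval 0.67 to 1.07) and 0.85 in CSD14 (0.68 to 1.08). All 4 differences lie below the median of expressed rows given above. In the fit without HC animals 1 and 2 they were -0.16, -0.32, -0.30 and -0.14, with adjusted p of 0.92, 0.68, 0.73 and 0.93. CSDrec was 0.16 above CSD14 (-0.18 to 0.50). No neighbours in the order of the group means differed beyond their spread.

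Neat1 was expressed at a mean of log2 6.29, above 90.5% of rows. It measured 5.72 and 5.81 in HC animals 1 and 2 and 6.38 and 6.21 in HC animals 5 and 6, and in CSD1 6.51, 6.23 and 6.04 in animals 4, 18 and 19. In CSD7 it was 5.97, 6.23, 6.37 and 6.63 in animals 9, 16, 17 and 25, in CSD14 6.54, 6.59, 6.03 and 6.10 in animals 12 to 15, and in CSDrec 6.29, 6.61, 6.54 and 6.65 in animals 28 to 31. The 2 lowest values of the series are those of HC animals 1 and 2, the arrays that stand apart, and 3 of 4 CSDrec animals lay above every HC animal. The mean was 6.03 ± 0.31 in HC, and CSD1 followed with 6.26 ± 0.23, CSD7 with 6.30 ± 0.28, CSD14 with 6.32 ± 0.29 and CSDrec with 6.53 ± 0.16 (SD, n = 4, and 3 in CSD1).

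Neat1 differed from HC by 0.23 (95% interval -0.16 to 0.62) in CSD1, by 0.27 (-0.09 to 0.63) in CSD7, by 0.29 (-0.08 to 0.65) after 14 days and by 0.49 (0.13 to 0.86) in CSDrec. Limma's adjusted p was 0.41, 0.29, 0.28 and 0.097. The CSDrec value corresponds to a linear ratio of 1.41 (1.10 to 1.81). Without HC animals 1 and 2 the differences were -0.03, 0.0046, 0.022 and 0.23 (adjusted p 0.99, 1, 0.99 and 0.84), so that only the recovery group stayed above HC by more than 0.1. With one distribution imposed on all arrays the first 3 turned negative, to -0.22, -0.16 and -0.10, and CSDrec stood at 0.15. Leaving out HC animal 5 or HC animal 6 instead brought CSDrec past the threshold, at 0.61 and 0.55 with adjusted p of 0.031 and 0.045. Those fits called 10604 and 13790 rows in CSDrec against HC, where the fit with all animals called 11. The Neat1 call there was therefore part of a rise in calls over the whole array. CSDrec was 0.21 above CSD14 (-0.15 to 0.57), and no neighbours in the order of means differed beyond their spread.

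Miat lay low, at a mean of log2 3.43 with 2.28% of receptor rows at or above it. The HC animals 1, 2, 5 and 6 had 3.24, 3.23, 3.37 and 3.37, and the CSD1 animals 4, 18 and 19 had 3.53, 3.25 and 3.36. The CSD7 animals 9, 16, 17 and 25 had 3.59, 3.56, 3.38 and 3.29, the CSD14 animals 12 to 15 had 3.47, 3.43, 3.53 and 3.55, and the CSDrec animals 28 to 31 had 3.58, 3.56, 3.40 and 3.43. All 4 CSD14 and all 4 CSDrec animals lay above the highest HC animal, and 3 of 4 CSD7 animals did. For those groups the rows called higher were 6.87% in CSD14, 0.0167% in CSDrec and 9.04% in CSD7, and Miat was not among them. A call is a stricter measure than lying above every HC animal, and the share of rows that separate in that way is not given. Rows above the receptor level stood at a median of 0.21, 0.22 and 0.22 above HC in CSD14, CSDrec and CSD7.

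Miat differed from HC by 0.08 (95% interval -0.10 to 0.26) in CSD1, by 0.15 (-0.01 to 0.32) in CSD7, by 0.19 (0.03 to 0.36) after 14 days and by 0.19 (0.02 to 0.36) in CSDrec, with limma's adjusted p of 0.56, 0.19, 0.12 and 0.14. The linear ratio was 1.14 in both CSD14 and CSDrec. With HC animals 1 and 2 left out the differences were 0.010, 0.086, 0.13 and 0.12 (adjusted p 0.99, 0.84, 0.76 and 0.83). The difference between CSDrec and CSD14 was -0.0030 (-0.17 to 0.16). The means ran in the order HC 3.30, CSD1 3.38, CSD7 3.45, CSDrec 3.49 and CSD14 3.49, and no neighbours differed beyond their spread.

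Kcnq1ot1 had a mean of log2 2.63, below the receptor level, with 16.8% of receptor rows at or above it, so that its values cannot be told from those of unexpressed genes. It measured 2.72, 2.75, 2.76 and 2.66 in HC animals 1, 2, 5 and 6 and 2.62, 2.54 and 2.46 in CSD1 animals 4, 18 and 19. In CSD7 animals 9, 16, 17 and 25 it was 2.48, 2.51, 2.51 and 2.84, in CSD14 animals 12 to 15 2.58, 2.68, 2.47 and 2.60, and in CSDrec animals 28 to 31 2.54, 2.65, 2.83 and 2.68. All 3 CSD1 animals and 3 of 4 in both CSD7 and CSD14 lay below the lowest HC animal, and CSD7 animal 25 lay above every HC animal. Rows called lower made up 0.96%, 1.96% and 1.03% of all rows in these groups. The share of rows that lie below the HC animals in the same way, a looser measure, is not given.

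The difference of Kcnq1ot1 from HC was -0.18 (95% interval -0.37 to 0.0025) in CSD1, -0.14 (-0.32 to 0.03) in CSD7 and again after 14 days, and -0.05 (-0.22 to 0.12) in CSDrec, and limma's adjusted p was 0.17, 0.24, 0.26 and 0.71. The median difference of the receptor rows themselves was -0.15, -0.12, -0.10 and -0.09. The differences of Kcnq1ot1 without HC animals 1 and 2 were -0.17, -0.13, -0.13 and -0.04. With arrays weighted by their quality the CSD1 difference passed the threshold, at -0.25 with an adjusted p of 0.027, in a fit that gave CSD1 animal 19 a weight of 9.91. The means ran downward in the order HC 2.73, CSDrec 2.67, CSD7 2.58, CSD14 2.58 and CSD1 2.54, and no neighbours differed beyond their spread.

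**Figure D2:**
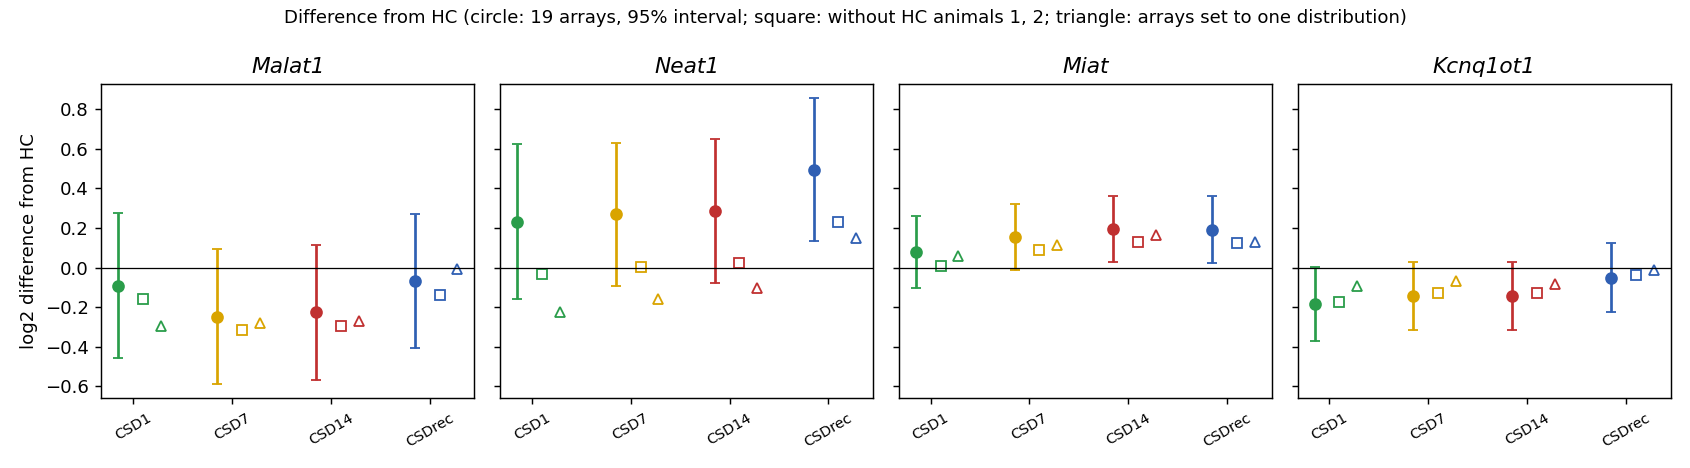
Log2 difference from HC (y axis) of each member in the 4 stress groups (x axis). Circles with bars are the fit over 19 arrays with its 95% interval, squares the fit without HC animals 1 and 2, and triangles the fit after all arrays were set to one distribution. For Neat1 in CSD7 the 3 points are 0.27, 0.0046 and -0.16, while Miat stays positive and Malat1 and Kcnq1ot1 negative at all points drawn.

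Of 6 pairs of members 1 passed the threshold by both measures of correlation. Malat1 and Kcnq1ot1 had a Pearson r of 0.73 and a Spearman rho of 0.71 over 19 animals (permutation p 0.00045 and 0.00098, adjusted over 6 pairs 0.0027 and 0.0059). Without CSD14 animal 14 and CSD7 animal 9, the farthest from the median, r was 0.65, and without HC animals 1 and 2 it was 0.76. On deviations from the group means it was 0.75. Since Kcnq1ot1 lies below the receptor level, this is a correlation of the signals of 2 rows, and it does not show that the Kcnq1ot1 transcript was present. Both were lowest in CSD14 animal 14 and highest in CSD7 animal 25, except that CSD1 animal 19 had the lowest Kcnq1ot1 value.

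Malat1 and Neat1, neighbours on chromosome 19, had r of 0.52 and rho of 0.58 (permutation p 0.023 and 0.012, adjusted 0.058 and 0.036). Without the same 2 farthest animals r was 0.40. Among the 17 animals other than HC 1 and 2 it was 0.77, and on deviations from the group means 0.81. HC animals 1 and 2 had ordinary Malat1 values beside the lowest Neat1 values, which is where the points leave the common slope. With one distribution imposed on all arrays r was 0.76.

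Neat1 and Kcnq1ot1 had r of 0.30 and rho of 0.40 over all animals (adjusted permutation p 0.26 and 0.11) and 0.71 without HC animals 1 and 2, which are also the 2 farthest. Miat ran the other way from Malat1 (r -0.48, rho -0.41, adjusted permutation p 0.058 and 0.11) and from Kcnq1ot1 (r -0.48, rho -0.44, adjusted permutation p 0.058 and 0.11). Both missed the threshold, and they were -0.53 and -0.38 without HC animals 1 and 2. Neat1 and Miat had r of 0.23 and rho of 0.16 (adjusted permutation p 0.34 and 0.51), and r was -0.21 without these 2 animals.

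**Figure D3:**
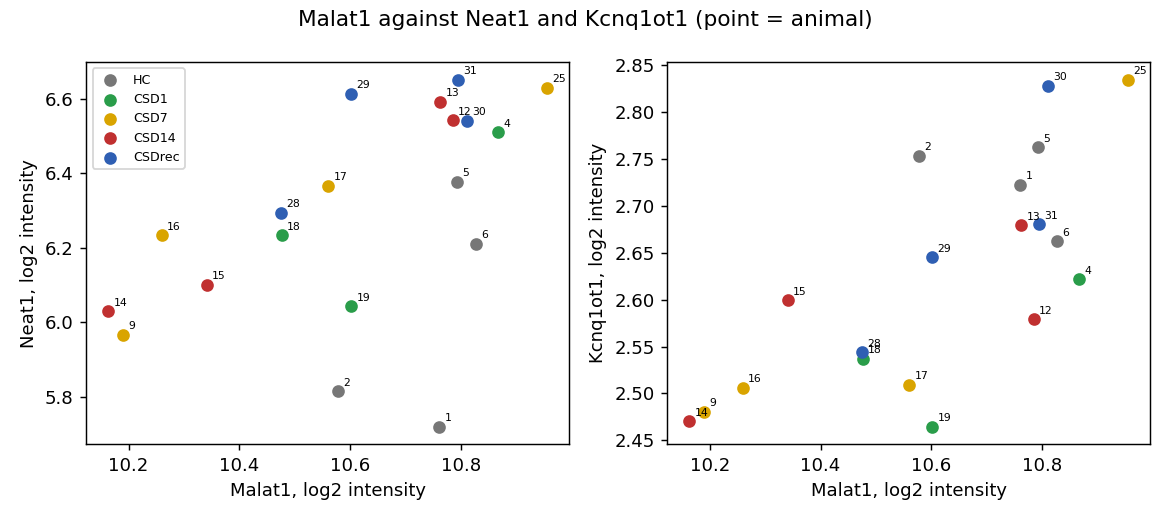
Log2 intensity of Neat1 (left) and Kcnq1ot1 (right) on the y axes against log2 intensity of Malat1 on the x axes, with 1 numbered point per animal coloured by group. HC animals 1 and 2 lie below the other points in the left panel (Neat1 5.72 and 5.81), and r without them is 0.77 on the left and 0.76 on the right.

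Levels of markers of other brain cells differed between the groups and were related to those of Malat1, Miat and Kcnq1ot1. Of 13 measured microglia markers 4, 12, 2 and 0 rose in the 4 stress groups from CSD1 to CSDrec, and their mean level ranged from 4.01 to 4.28 in HC, 4.40 to 5.65 in CSD1, 4.59 to 6.00 in CSD7, 4.71 to 5.08 in CSD14 and 4.79 to 5.36 in CSDrec. Their median difference was 0.91, 1.06, 0.66 and 1.12 (0.82, 0.97, 0.57 and 1.03 without HC animals 1 and 2), and all 13 were positive in each group. Since CSDrec against HC called 0.0167% of all rows, 0 called there does not mean a return to the HC level. Of protein-coding rows above the receptor level 19.7%, 32.8%, 24% and 0.0748% rose. Cx3cr1, the fractalkine receptor of microglia, was 4.15 to 4.38 in HC and reached 6.71 in CSD7 animal 9 and 6.54 in CSD1 animal 19. CSD7 animal 9 had the highest mean of microglia, astrocyte, neuron and oligodendrocyte markers and the second lowest Malat1 value. The astrocyte level ranged from 3.75 to 4.07 in HC and 4.05 to 6.02 in CSD7, the neuron level from 3.57 to 3.69 and 3.71 to 4.54, and the oligodendrocyte level from 4.39 to 4.65 and 4.60 to 4.90. Of the markers of these types called against HC, 2 of 7 astrocyte, 1 of 12 neuron and 2 of 9 oligodendrocyte markers rose in CSD7, beside 32.8% of protein-coding rows above the receptor level. Mog, a myelin protein of oligodendrocytes, stayed within 2.98 to 3.27 in all animals. The oligodendrocyte list also held Mal, with means of 10.08 in HC and 10.77 in CSD14, and Cldn11, with 3.98 and 4.02. The neuron list held Stmn2, with means of 7.14 in HC and 8.42 in CSD14, and Nefl, with 2.82 and 2.73. In CSD14 8 of 9 oligodendrocyte and 8 of 12 neuron markers had a positive difference from HC. The mean of 8 border macrophage markers was 3.06 to 3.19 in HC, and in CSDrec it was 4.13, 4.09, 4.50 and 3.19 in animals 28 to 31, so that 3 of the 4 lay far above HC. Their median difference in CSDrec, the group with the highest Neat1 mean, was 0.73 (0.72 without HC animals 1 and 2), and 0 of 8 were called. Mrc1, the mannose receptor of these cells, was 2.69 to 2.86 in HC and 2.78 to 6.05 in CSDrec.

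Over 19 animals and 32 relations between members and marker levels, Malat1 was lower where the microglia level was higher (r -0.60, rho -0.51, adjusted permutation p 0.026 and 0.069) and likewise for the astrocyte level (r -0.58, rho -0.53, adjusted permutation p 0.026 and 0.064). Without the 2 animals farthest on the marker axis r was -0.59 and -0.52. For the neuron level Malat1 had r of -0.55 and rho of -0.51 (adjusted permutation p 0.026 and 0.069, r -0.39 without the 2 farthest). Kcnq1ot1 was inversely related to the oligodendrocyte level (r -0.71, rho -0.76, adjusted permutation p 0.0069 and 0.0035, -0.72 without the 2 farthest) and the astrocyte level (r -0.63, rho -0.75, adjusted permutation p 0.011 and 0.0035, -0.62 without the 2 farthest). It was also inversely related to the microglia level (r -0.64, rho -0.65, adjusted permutation p 0.02 and 0.016). The same held for the neuron level (r -0.51, rho -0.66, adjusted permutation p 0.038 and 0.013). Without the 2 farthest r was -0.56 in both. Since Kcnq1ot1 lies below the receptor level, these are relations of the signal of its row. Miat was positively related to the oligodendrocyte level (r 0.81, rho 0.81, adjusted permutation p 0.00032 and 0.0029, 0.71 without the 2 farthest) and the neuron level (r 0.64, rho 0.74, adjusted permutation p 0.00096 and 0.0041, 0.73 without the 2 farthest). Both levels are means over markers that did not all move alike, as given above for Mal and Stmn2. Whether Miat follows the content of these cells was not tested, and the same holds for Malat1 and Kcnq1ot1. Miat and the border macrophage level had r of 0.48 and rho of 0.69 (adjusted permutation p 0.089 and 0.010), with r of 0.60 without the 2 farthest. Without HC animals 1 and 2, r of Malat1 was -0.68, -0.60 and -0.56 for the microglia, astrocyte and neuron levels. That of Kcnq1ot1 was -0.72, -0.58, -0.58 and -0.44 for the oligodendrocyte, astrocyte, microglia and neuron levels. That of Miat was 0.71, 0.54 and 0.42 for the oligodendrocyte, neuron and border macrophage levels. The r and permutation p of marker levels pool all groups, so differences between groups enter them. Relations within groups were not tested.

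Neat1 went with the endothelial level over all animals (r 0.63, rho 0.56, adjusted permutation p 0.020 and 0.060). That relation rests on HC animals 1 and 2, without which r was 0.34. Neat1 and the microglia level had r of 0.066 over all animals (rho 0, adjusted permutation p 0.9 and 1) and -0.45 without HC animals 1 and 2. Its relation to the border macrophage level was r 0.16 and rho 0.026 (adjusted permutation p 0.74 and 1). Over all animals no relation of Neat1 to a marker list other than the endothelial one had an adjusted permutation p under 0.05. Without HC animals 1 and 2 its r was -0.58, -0.44 and -0.42 with the astrocyte, oligodendrocyte and neuron levels. With the border macrophage, pericyte and smooth muscle, and blood leukocyte levels it was -0.0070, -0.17 and -0.084. No p was computed without these animals. The part of other cells in the levels of the members was not tested.

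The rows most like each member were searched among 13225 rows of named genes above the receptor level by Pearson's r over 19 animals (13226 rows for Kcnq1ot1). Nearest to Malat1 were Gdap10 (0.83), Ttc14 (0.82) and a row named Drr1 (0.80). Nearest to Neat1 were Lincpint (0.94), itself a long noncoding RNA, Stard9 (0.92) and Vsig2 (0.91). Nearest to Miat were Srrm3 (0.96), Dlx1 (0.96) and Grip2 (0.94). Nearest to Kcnq1ot1 were Drr1 (0.74), Malat1 (0.73) and Tbrg3 (0.66). Leaving out HC animals 1 and 2, the r of these rows was 0.94, 0.94 and 0.82 for Malat1, 0.90, 0.88 and 0.87 for Neat1, 0.97, 0.94 and 0.92 for Miat, and 0.74, 0.76 and 0.86 for Kcnq1ot1. The points share their arrays, and r is given as a description.

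Other named long noncoding RNAs were measured in 20 of 43 cases, 12 of them above the receptor level. Trp53cor1, the p53-induced RNA also named lincRNA-p21, was the only one that passed limma's test: it rose by 0.66, 0.61 and 0.63 after 1, 7 and 14 days (SE 0.16, 0.14 and 0.14, adjusted p 0.031, 0.022 and 0.022) and stood at 0.52 in CSDrec (adjusted p 0.065). It measured 3.19, 3.52, 3.97 and 3.82 in HC animals 1, 2, 5 and 6 and 4.08 to 4.51 in the CSD1, CSD7 and CSD14 animals, which all lay above HC. The share of rows that separate in this way is not given. Of all rows 5.84%, 9.04% and 6.87% were called higher in CSD1, CSD7 and CSD14, beside 1 of 20 here. When HC animals 1 and 2 were left out the differences of Trp53cor1 were 0.39, 0.34 and 0.36 with adjusted p of 0.41, 0.42 and 0.41. The median difference of the 20 genes was 0.057, 0.067, 0.065 and 0.093 in the same groups, and that of the 4 members -0.0064, 0.0059, 0.026 and 0.071. With HC animals 1 and 2 left out these medians were 0.0023, 0.016, 0.0030 and 0.044 for the 20 genes and -0.097, -0.063, -0.054 and 0.043 for the members, so that the sign turned for the members in CSD7 and CSD14.

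Imprinted Peg13 was 0.53, 0.49, 0.54 and 0.42 above HC (adjusted p 0.081, 0.071, 0.06 and 0.14), and Norad, a cytoplasmic RNA that binds Pumilio proteins, 0.47, 0.35, 0.21 and 0.44 (adjusted p 0.076, 0.12, 0.36 and 0.094). In the absence of HC animals 1 and 2 Peg13 stood at 0.11, 0.068, 0.12 and -0.0032 and Norad at 0.070, -0.043, -0.19 and 0.038. Xist, which coats the inactive X chromosome of females, was at log2 2.49 in these male mice, below the receptor level and close to Kcnq1ot1.

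**Figure D4:**
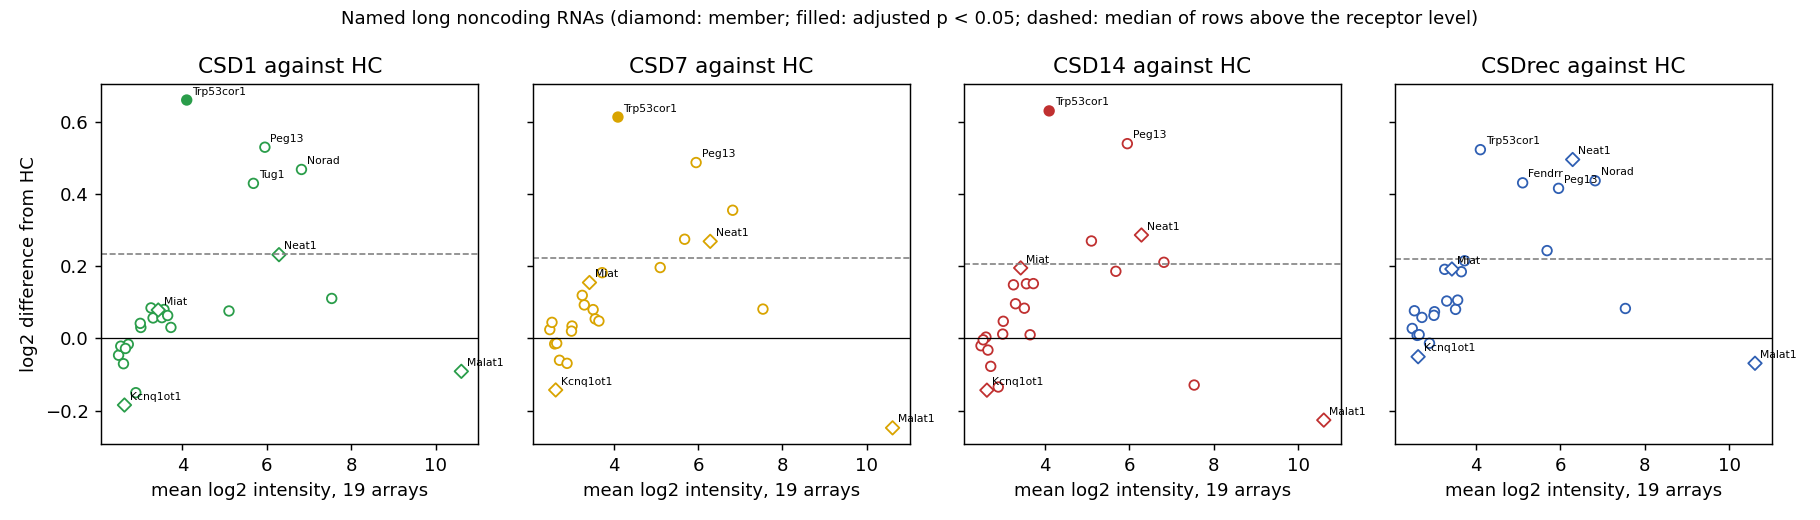
Log2 difference from HC (y axis) against mean log2 intensity over 19 arrays (x axis) for the 4 members (diamonds) and 20 other named long noncoding RNAs (circles), 1 panel per stress group. Filled points passed limma's test, the dashed line is the median of rows above the receptor level (0.23, 0.22, 0.21 and 0.22), and Malat1 lies below that line in every panel.

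Among rows that RefSeq classes as long noncoding RNAs, a grouping chosen after the values were seen, 1022 lay above the receptor level. Of these, 13 (1.27%) rose in CSD1, 48 (4.7%) in both CSD7 and CSD14, and 0 in CSDrec, while 2, 3, 1 and 0 fell. Of 13373 protein-coding rows above that level 19.7%, 32.8%, 24% and 0.0748% rose. The median difference was 0.09, 0.11, 0.12 and 0.15 for the noncoding rows and 0.32, 0.32, 0.28 and 0.27 for the coding rows. The medians without HC animals 1 and 2 were -0.0022, 0.019, 0.032 and 0.052 against 0.086, 0.096, 0.080 and 0.063, and no noncoding row was called. The classes differ in level, and they were not matched for it.

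Proteins that work with the members were taken as lists. For comparison, 19.7%, 32.8%, 24% and 0.0748% of protein-coding rows above the receptor level rose from CSD1 to CSDrec. The median difference of those coding rows was 0.32, 0.32, 0.28 and 0.27. Of 19 measured nuclear speckle and SR splicing proteins, found in the bodies where Malat1 resides, 0, 1, 0 and 0 rose in the same order of groups, with medians of 0.28, 0.27, 0.17 and 0.25. The 1 was Srsf4, at 0.44 in CSD7 (adjusted p 0.049). Of 12 paraspeckle proteins, which gather on Neat1, 1, 2, 1 and 0 rose, with medians of 0.31, 0.29, 0.20 and 0.28. Nono, a core protein of paraspeckles, rose by 0.33 in CSD1 and 0.29 in CSD7 (adjusted p 0.04 and 0.034), and Smarca4, a chromatin remodelling ATPase, by 0.52 in CSD7 and 0.56 in CSD14 (adjusted p 0.047 and 0.042). Neither list had a called gene without HC animals 1 and 2, where the medians were -0.041, -0.054, -0.15 and -0.050 for speckles and 0.098, 0.058, -0.0080 and 0.046 for paraspeckles.

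Among 6 measured partners and neighbours of Miat 0, 3, 2 and 0 rose, with medians of 0.26, 0.31, 0.34 and 0.34. The shares of protein-coding rows above the receptor level that rose were 19.7%, 32.8%, 24% and 0.0748%. Crybb1, a crystallin gene near Miat, rose by 0.73 in CSD7 (adjusted p 0.043). Tpst2, a tyrosine sulphotransferase encoded nearby, rose by 0.57 in CSD7 and 0.61 in CSD14 (adjusted p 0.032 and 0.029), and Sf1, a splicing factor that binds Miat, by 0.39 in CSD14 (adjusted p 0.048). Crybb3 stood at 0.33 in CSD7 (adjusted p 0.05).

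All 11 genes listed for the Kcnq1 imprinted domain were measured, and 3, 4, 4 and 0 rose while none fell, with medians of 0.23, 0.32, 0.35 and 0.26. Of 13373 protein-coding rows above the receptor level 19.7%, 32.8%, 24% and 0.0748% rose in the same groups, and 1, 1, 2 and 0 rows fell. Their medians were 0.32, 0.32, 0.28 and 0.27, and 10 of the 11 genes lay above that level. Kcnq1, the potassium channel gene on the opposite strand, rose by 0.38 in CSD1, 0.32 in CSD7 and 0.35 after 14 days (adjusted p 0.037, 0.036 and 0.032). No source used here says whether the probes of the 2 rows tell the strands apart. Cd81, a tetraspanin, rose by 0.42, 0.47 and 0.36 (adjusted p 0.035, 0.017 and 0.035) and Tssc4 by 0.37, 0.37 and 0.42 (adjusted p 0.046, 0.028 and 0.023). Slc22a18, a transporter of the domain, rose in CSD14 (0.40, adjusted p 0.048) and Osbpl5 in CSD7 (0.30, adjusted p 0.029). Cdkn1c, a cell cycle inhibitor silenced by Kcnq1ot1 in development, stood at 0.03, 0.10, 0.18 and 0.32 (adjusted p 0.86, 0.45, 0.18 and 0.065). With HC animals 1 and 2 left out none of the genes of the Miat and Kcnq1 lists passed, and the medians were 0.043, 0.13, 0.12 and 0.058 and 0.084, 0.063, 0.088 and 0.085.

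The 4 members without a row of their own lie on rows that also name other genes, so that no value can be assigned to the long noncoding RNA alone. The row of Gas5 with Snord47 and Mir5117 had a mean of log2 4.24, and was 0.26, 0.14, 0.10 and 0.11 above HC, from CSD1 to CSDrec (limma's adjusted p 0.078, 0.28, 0.45 and 0.39). The row of Snhg1 with Snord22 (mean 3.65) stood at 0.16, 0.08, 0.08 and 0.05 (adjusted p 0.17, 0.45, 0.49 and 0.65), and the row of Snhg12 with Snord99, Snora61 and Snora44 (mean 3.70) at 0.18, 0.03, 0.04 and -0.09 (adjusted p 0.14, 0.81, 0.75 and 0.41). These 3 rows of snoRNA hosts had their highest group mean in CSD1, and CSD1 animal 18 had the highest value of all 19 animals on each of them, at 4.54, 3.80 and 4.01. The row of Meg3 with 3 microRNA symbols (mean 3.18) stood at 0.03, 0.11, 0.08 and 0.18 (adjusted p 0.81, 0.28, 0.46 and 0.13), and all 4 CSDrec animals, at 3.24 to 3.35, lay above the HC animals, at 2.95 to 3.20. The share of rows that separate in this way is not given, and in CSDrec 17350 of 65956 rows had an unadjusted limma p under 0.05. Dropping HC animals 1 and 2, the Gas5 row stood at 0.14, 0.015, -0.022 and -0.0077, the Snhg1 row at 0.065, -0.015, -0.019 and -0.043, the Snhg12 row at 0.090, -0.057, -0.046 and -0.18, and the Meg3 row at -0.043, 0.038, 0.0059 and 0.10. Each of these rows turned sign in at least 1 group, and none passed the test in either fit.

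Of 22 snoRNAs hosted by Gas5, Snhg1 and Snhg12 1 had a row of its own, Snora16a, which ranged from 8.52 to 9.83 in HC and stood at 0.55, 0.07, 0.12 and -0.38 (adjusted p 0.28, 0.89, 0.83 and 0.44), or at 0.12, -0.36, -0.31 and -0.81 without HC animals 1 and 2. Of 13 other snoRNA host genes 0, 2, 1 and 0 rose, with medians of 0.28, 0.22, 0.17 and 0.19: Snhg18 in CSD7 (0.50, adjusted p 0.038) and Hspa8, a heat shock cognate that carries snoRNAs in its introns, in CSD7 and CSD14 (0.44 and 0.48, adjusted p 0.028 and 0.025). Set beside this count and the next, 19.7%, 32.8%, 24% and 0.0748% of protein-coding rows above the receptor level rose. Of long noncoding rows above it 1.27%, 4.7%, 4.7% and 0% rose. Host RNAs such as Gas5 are degraded by nonsense-mediated decay, and of 9 measured decay factors 3, 5, 5 and 0 rose, with medians of 0.46, 0.51, 0.48 and 0.41. Upf1, the helicase of this pathway, rose by 0.71 in CSD1, 0.59 in CSD7 and 0.70 after 14 days (adjusted p 0.031, 0.026 and 0.019) and Smg5 by 0.65, 0.63 and 0.62 (adjusted p 0.03, 0.017 and 0.018). Of the 4 measured genes of the Dlk1-Dio3 domain of Meg3 none passed, and Dlk1 stood at 0.26 and Dio3 at 0.34 in CSD14 (adjusted p 0.063 and 0.076). No gene of these 4 lists passed without HC animals 1 and 2, and the medians were 0.12, 0.19, 0.17 and 0.13 for the decay factors, 0.079, 0.032, -0.0078 and 0.015 for the other host genes and 0.017, 0.12, 0.16 and 0.11 for the Dlk1-Dio3 genes.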

How the data were processed

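Affymetrix arrays measured total RNA of bECs from 19 animals. The authors made the deposited log2 values by RMA background correction, quantile normalization and median polish, in Partek per the methods and in Expression Console per the labels; the versions, the genome build and the array type (which labels and methods give differently) are not settled by the sources used here. The 19 columns do not share one distribution as deposited. Of 72688 rows, 6732 control rows were left out and 65956 tested; 30638 carry 1 symbol, 2176 several and 33142 none. All data columns were mapped to animals by their labels. HC animal 5 is home caged by title and source but stressed by its diet field, and was kept as HC.

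Each row was fitted with limma 3.58.1 in R 4.3.3 over 5 groups (14 residual degrees of freedom, eBayes), with Benjamini-Hochberg adjustment over all tested rows and a threshold of 0.05. Correlations used 100000 permutations, two-sided. The members and lists were chosen with earlier results of these data known. Named genes are the members, for each list those with the largest changes past the threshold (otherwise the largest), genes of a member's domain, and the 3 nearest rows to each member; Peg13, Norad, Xist, Crybb3, Mog and Cx3cr1 were chosen with their values known. Precision is limited by the number of arrays: on simulated data with 65956 rows and this layout, CSD14 against HC found 48 of 100 rows changed by log2 0.5 and 89 of 100 changed by log2 1, with 5 false calls. The simulated noise was independent between rows, without an array-wide difference such as that of HC animals 1 and 2. These counts therefore need not hold for the real arrays. Alternatives were another normalization, HC animals 1 and 2 left out, array weights, fits of 2 groups, a receptor level filter, another eBayes prior, per-row ANOVA and each animal left out. Figures used Python 3.11.15 and matplotlib 3.10.9.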

Additional observations from a re-analysis of the deposited data

Results flagged for a closer look

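Kcnq1ot1 in CSD7 animal 25 stood far from the other animals of its group, at 2.84 against 2.48, 2.51 and 2.51 in animals 9, 16 and 17. It was the only such value in 16 groups of 4 animals (4 members in each of 4 groups), where chance gives about 1 in 20. The same animal had the highest Malat1 value of the series (10.96), and Neat1 was at 6.63. Kcnq1ot1 lies below the receptor level.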

How the results depend on the processing

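The 0 calls among members kept to 0 in CSD7, CSD14, CSDrec against CSD14 and the F-test under all alternatives run. With array weights 1 member was called in CSD1 against HC (Kcnq1ot1) and 3 calls arose over all pairs of groups. Leaving out 1 animal at a time, the count ranged from 0 to 1 in CSDrec against HC and from 0 to 1 over all pairs. In CSDrec against HC the 1 was Neat1, without HC animal 5 and likewise without HC animal 6. In that comparison those fits called 10604 and 13790 of all rows, against 11 with all animals kept. With one distribution imposed on all arrays Neat1 turned negative in CSD1 (-0.22), CSD7 (-0.16) and CSD14 (-0.10), and Nono in CSD1 (-0.054). Without HC animals 1 and 2 Neat1 in CSD1 was -0.032, and with array weights it was -0.18, Miat in CSD1 was -0.0024 and Miat in CSDrec against CSD14 was 0.0023. Leaving out 1 animal each moved that last value between -0.032 and 0.028. With one distribution imposed on the 17 other arrays, chosen after seeing the data, Neat1 was -0.17 in CSD1, -0.11 in CSD7 and -0.052 in CSD14, Snora16a was -0.031 in CSD1 and Malat1 was 0.062 in CSDrec. The causes were not tested. A per-row ANOVA called 0 rows (12576 with an unadjusted p under 0.05), against 366 for limma's F-test (13946). Without HC animals 1 and 2 every call named for single genes was lost. The receptor level filter leaves out Kcnq1ot1, and each member has 1 row, so averaging rows changed nothing and was not run. No paired analysis was possible because the groups share no animal numbers. Miat near the receptor level and Kcnq1ot1 below it are limited by signal over background.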
